A study of Rattus norvegicus and Sus scrofa and Bos taurus with 188 samples.

Results

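The 10 genes described here encode transcription factors of the pluripotency network: KLF17, KLF5, ZFP42, SALL4, ESRRB, TBX3, NR5A2, PRDM14, SOX2 and TFCP2L1. They were chosen by gene name, with earlier results of these data known, in a table of RNA levels of pig morulae. There they are 10 of 15877 genes and hold 19 of 37571 transcript rows. The series compares chromatin marks, DNA methylation and RNA in gametes and early embryos of several mammals, with 188 samples in 90 groups here. The table belongs to 1 group of 4 RNA libraries from Sus scrofa at the morula stage, whose titles carry the mark PG. In sister samples of the series this mark stands for parthenogenetically activated embryos, which arise from an egg activated without sperm and so carry a maternal genome only. No other treatment or genotype is named for these embryos. The sources used here give neither their breed nor the number of embryos in a library.

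Pluripotent cells of the early embryo are held in their state by transcription factors that bind many of the same regulatory elements and activate one another. SOX2 pairs with a POU-domain factor at the centre of the network, while KLF5, ESRRB, TFCP2L1, TBX3, NR5A2 and PRDM14 are known from mouse embryonic stem cells as auxiliary factors of the naive state, the ground state of the early epiblast. KLF17 marks naive cells in human embryos, ZFP42, also called REX1, is a classical marker of pluripotent stem cells, and SALL4 is a zinc finger protein needed for the early inner cell mass. Several of them act before the blastocyst forms: NR5A2 has been tied to the first transcription of the mouse embryo, and KLF5 to the first lineages.

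The values are FPKM, fragment numbers divided by transcript length and by library size. The authors merged the 4 libraries into 1 column, so no value below has a spread between replicates, an SD or a p-value, and the read depth is unknown. Every comparison is between genes of the same merged embryos, and a ratio between genes carries no error estimate. A gene's level is the sum of its transcript rows. In such bulk RNA, fewer cells of a type and less RNA per cell cannot be told apart.

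The label was set against marker lists. Over all genes, 50.6% stood at 1 FPKM or more. Of 12 markers of the morula and its outer cells 9 (75%) did, among them TFAP2C at 194 FPKM, PARD6B at 88.6 FPKM, TEAD4 at 61.4 FPKM, CLDN6 at 56.8 FPKM and the adhesion gene CDH1 at 47.9 FPKM. Of 7 hypoblast markers 3 (42.9%) did, led by GATA6 at 52.6 FPKM. Of 13 measured markers of cumulus cells, which surround the egg, 3 (23.1%) did: VCAN at 19.1 FPKM, FST at 16.9 FPKM and CYP19A1 at 1.06 FPKM. By the highest transcript row of each gene 2 of the 13 did, as CYP19A1 then stood at 0.835 FPKM. The 10 markers below 1 FPKM by summed rows lay between 0 and 0.300 FPKM. Among them the cumulus receptor gene FSHR and the granulosa factor gene FOXL2 were listed at 0.

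Transcripts of 9 of the 10 factors stood at 1 FPKM or more, beside 50.6% of all genes. The median of the 10 was 21.4 FPKM, against 1.06 FPKM for all genes and 7.95 FPKM for the genes at 1 FPKM or more. Of the 10 factors 7 lay above the latter value. The count of factors was also 9 by the highest row of each gene (48.8% of all genes), at thresholds of 0.5 FPKM (57.9%) and 5 FPKM (31.1%), and without the rows at 0 that end the table (51.3%). With values rescaled to a common total, the TPM scale, all 10 reached 1, as did 62.5% of all genes. KLF17 was highest at 85.9 FPKM and TFCP2L1 lowest at 0.380 FPKM, a ratio of 226. Among the 9 factors at 1 FPKM or more the highest and lowest differed 16.03-fold. Together the 10 genes made up 0.0847% of the FPKM total of 304889, and KLF17 alone held 33.3% of their sum.

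**Figure D1:**
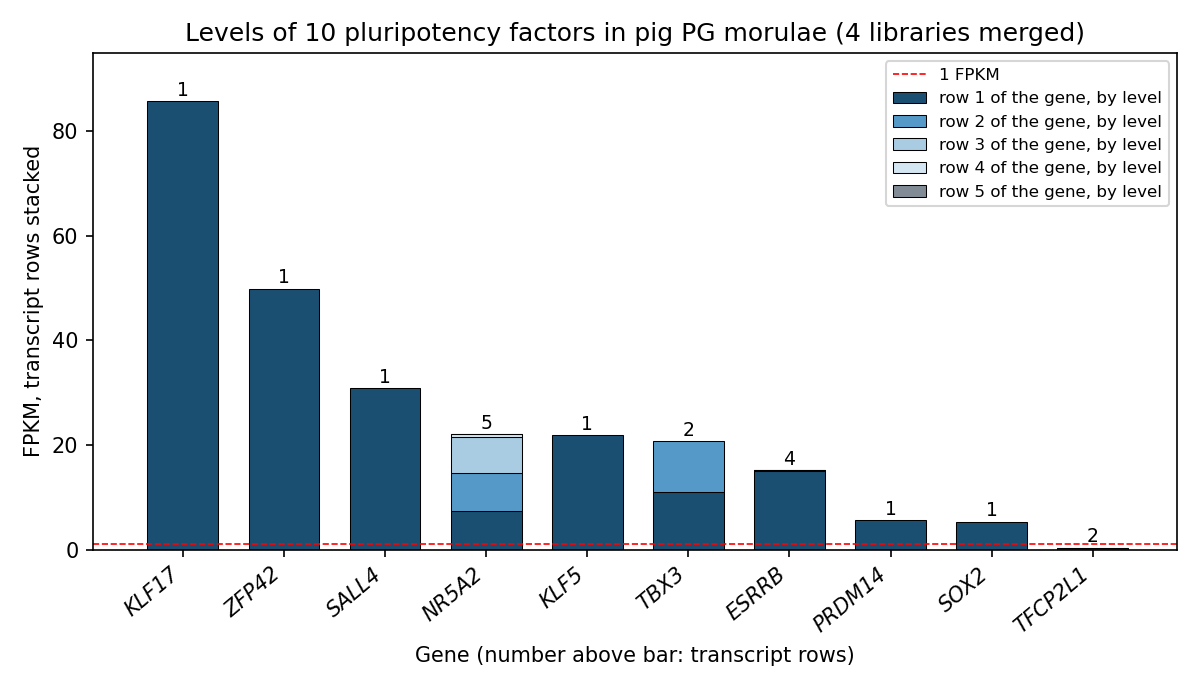
The vertical axis gives FPKM from 0, with the transcript rows of each gene stacked from the highest up, and the number above each bar is the number of rows. KLF17 stands at 85.9 FPKM, the middle group of NR5A2, KLF5 and TBX3 lies between 20.8 and 22.1 FPKM, and TFCP2L1 at 0.380 FPKM is below the dashed line at 1 FPKM.

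The 3 highest factors were zinc finger genes with a single transcript row each. KLF17, a Krüppel-like factor that binds GC-rich promoter elements, stood at 85.9 FPKM (ENSSSCT00000029287.2) and ranked 659 of 15877 genes, within the top 4.15%. ZFP42, a zinc finger gene of the YY1 family, stood at 49.9 FPKM (ENSSSCT00000062645.1) and ranked 1136. SALL4, a spalt-like zinc finger gene, stood at 30.9 FPKM (ENSSSCT00000008186.3) and ranked 1682. KLF17 was 1.72-fold above ZFP42, and ZFP42 was 1.62-fold above SALL4. KLF17 and ZFP42 were the 2 factors in the top 10% of genes, which begins at 33.1 FPKM, so SALL4 lay just outside it.

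A middle group of 3 genes lay within a narrow range. NR5A2, an orphan nuclear receptor that binds DNA as a monomer, summed to 22.1 FPKM at rank 2137. KLF5, the other Krüppel-like factor of the set, stood at 21.9 FPKM in its one row (ENSSSCT00000037574.1) at rank 2152. TBX3, a T-box factor, summed to 20.8 FPKM at rank 2239. Neighbours in this group differed by 1.01-fold and 1.05-fold. With no spread between libraries, their order cannot be told. By the highest row in place of the sum the group came apart, with KLF5 unchanged, TBX3 at 11.0 FPKM (rank 2997) and NR5A2 at 7.41 FPKM (rank 3751).

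ESRRB, an oestrogen-related receptor that binds no natural oestrogen, followed at 15.2 FPKM and rank 2798. It closed the set of 7 factors within the top 20% of genes, which begins at 12.3 FPKM. PRDM14, a PR-domain zinc finger gene that represses fibroblast growth factor signalling in mouse stem cells, stood at 5.70 FPKM (ENSSSCT00000006790.2, rank 4686). SOX2, the HMG-box factor of the core network, stood at 5.36 FPKM (ENSSSCT00000046496.1, rank 4803). These 2 genes differed 1.06-fold and both lay below the median of the genes at 1 FPKM or more. TFCP2L1, a CP2-family factor induced by STAT3 in mouse stem cells, came last at 0.380 FPKM and rank 9609, 14.1-fold below SOX2. The order of PRDM14 and SOX2 cannot be told either.

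**Figure D2:**
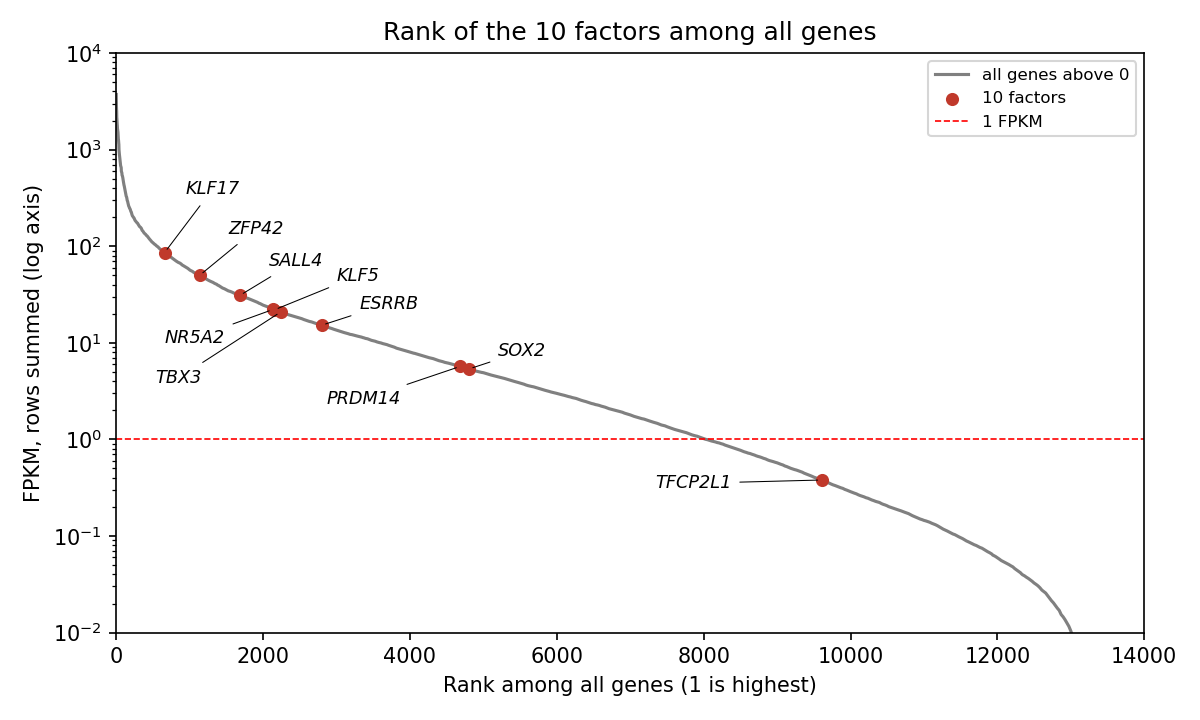
The horizontal axis gives the rank among all genes, with 1 the highest, and the vertical log axis the summed FPKM. The grey line holds all genes down to 0.01 FPKM, where the axis ends, and the red points are the 10 factors: 7 of them lie between ranks 659 and 2798, PRDM14 and SOX2 at ranks 4686 and 4803, and TFCP2L1 at rank 9609, below the dashed line at 1 FPKM.

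Of the 19 transcript rows 12 stood at 1 FPKM or more, beside 30.3% of all rows. A single row was listed for 6 of the factors, as for 44.5% of all genes, and the 4 others held the remaining 13 rows. Transcripts of a gene commonly share exons, so a single row depends on how shared reads were divided among the rows, and the sum depends on it less.

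NR5A2 was divided almost evenly over 3 of its 5 rows. ENSSSCT00000057795.1 stood at 7.41 FPKM, ENSSSCT00000064670.1 at 7.32 FPKM and ENSSSCT00000042649.1 at 6.77 FPKM, which are 33.4%, 33.1% and 30.6% of the sum. The other rows were minor, with ENSSSCT00000064152.1 at 0.648 FPKM and ENSSSCT00000026077.2 at 0.000105 FPKM. Among the 490 genes that also have 5 rows and reach 1 FPKM, the highest row held a median of 63.2% of the sum, and 3 of the 490 had a lower share than NR5A2.

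TBX3 was split between its 2 rows, with 11.0 FPKM in ENSSSCT00000010813.3 and 9.78 FPKM in ENSSSCT00000030119.2. The higher row held 53.0% of the sum. Among the 2137 genes with 2 rows and at least 1 FPKM the median share was 93.2%, and 57 of them (2.67%) had a lower share than TBX3. Both of its rows were above 1 FPKM, as were both rows in 41.2% of those genes.

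ESRRB showed the opposite pattern. ENSSSCT00000002655.3 stood at 15.04 FPKM and held 99.0% of the sum, while ENSSSCT00000066216.1 was at 0.157 FPKM, ENSSSCT00000046325.1 at 0.00121 FPKM and ENSSSCT00000055726.1 at 1.46e-41 FPKM. The last value is 0 for practical purposes. Of the 759 genes with 4 rows and at least 1 FPKM, 702 (92.5%) had a lower share in their highest row, and the median was 70.7%. ESRRB was the 1 gene of the 3 factors with several rows and at least 1 FPKM whose highest row held 90% or more, beside 36.6% of all such genes. TFCP2L1 had 0.283 FPKM in ENSSSCT00000017132.3 and 0.0968 FPKM in ENSSSCT00000033811.2, so neither row reached 1 FPKM.

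**Figure D3:**
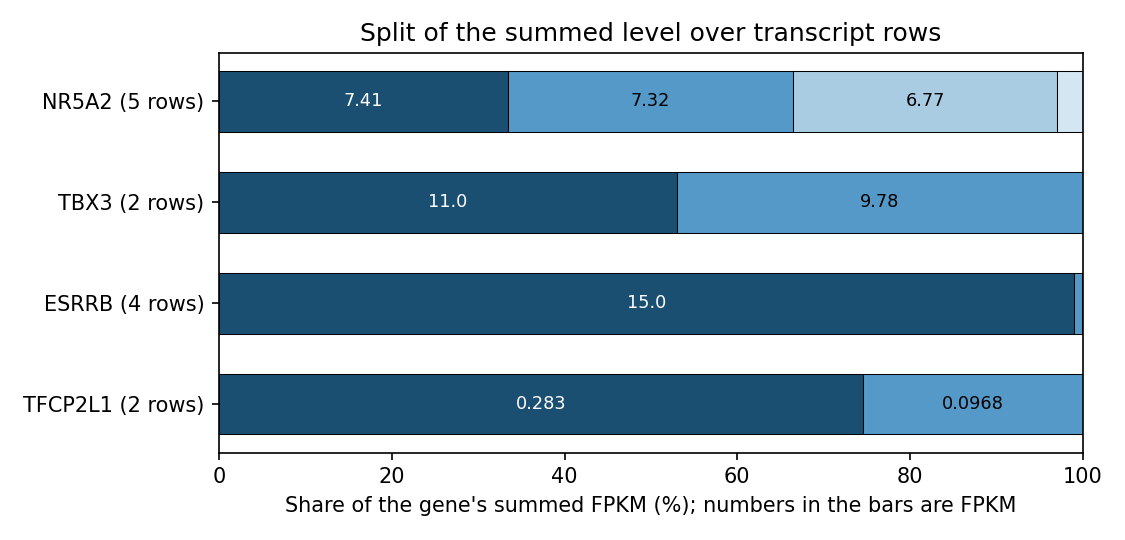
Each horizontal bar divides the summed FPKM of a gene into the shares of its transcript rows, in percent, with the FPKM of the larger rows printed inside. NR5A2 is divided over 3 rows of 6.77 to 7.41 FPKM and TBX3 over 2, whereas the highest row of ESRRB holds 99.0%.

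Each factor belongs to a family of related genes, and the families gave a reference for its level. Of the 73 other genes counted in the 9 families 20 (27.4%) stood at 1 FPKM or more, beside 50.6% of all genes, with a median of 0.0945 FPKM. A factor of the set was the highest of the genes counted here in 6 families, both by summed rows and by the highest row. Whether reads were shared between related genes was not tested.

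In the Krüppel-like family 9 of the 14 other measured genes (64.3%) stood at 1 FPKM or more. KLF10, a target of transforming growth factor beta signalling, stood at 53.9 FPKM, KLF3 at 40.4 FPKM, KLF7 at 20.8 FPKM and KLF8 at 4.40 FPKM. KLF17 was 1.59-fold above KLF10 and held 36.0% of the sum of the 16 measured genes, while KLF5 was the fourth of them with 9.17%. KLF2, a naive-state factor in mouse, stood at 0.248 FPKM, and KLF4 was not analysed here.

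In the spalt-like, NR5A and T-box families 1 factor held most of the sum. SALL4 held 96.5%, with SALL2 at 0.901 FPKM, SALL1 at 0.232 FPKM and SALL3 listed at 0. NR5A2 held 99.8%, and its relative NR5A1, a regulator of steroid-producing tissues, was at 0.0491 FPKM. TBX3 held 65.9% of 17 T-box genes. The chromatin-bound repressor gene MGA followed at 7.28 FPKM and TBX6 at 1.57 FPKM, and EOMES, a trophoblast and mesendoderm factor, was the highest below 1 FPKM at 0.455 FPKM. The closest relative of TBX3, TBX2, was listed at 0.

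ZFP42 stood 3.16-fold above YY1, a ubiquitous zinc finger factor at 15.8 FPKM. PRDM14 was the highest of 14 PRDM genes counted here and 2.04-fold above PRDM4 (2.79 FPKM), with PRDM10 at 2.04 FPKM and PRDM6 at 1.97 FPKM next. PRDM1, the germ cell factor also called BLIMP1, was at 0.997 FPKM, and PRDM14 held 39.1% of their sum.

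In the other 3 families a relative stood higher than the factor of the set. SOX15, which binds the same kind of HMG-box site as SOX2, stood at 113 FPKM at rank 478, 21.03-fold above SOX2. SOX2 was second of 19 SOX genes with 4.50% of their sum. The next was SOX4 at 0.423 FPKM, and 8 of the 19 were listed at 0, among them SOX1 and SOX3, the closest relatives of SOX2. SRY, another of the 8, is a gene of the Y chromosome, which a maternal genome does not carry. Its row also lies within a run of 474 rows at 0 that ends the table, and its expression cannot be judged from this 0. ESRRG stood at 38.4 FPKM and ESRRA at 1.19 FPKM, so that by summed rows ESRRB was second of 3 with 27.7% of the sum. It lay 2.53-fold below ESRRG. By the highest row the 2 genes were close, with ESRRG at 16.1 FPKM and ESRRB at 15.0 FPKM, and their order cannot be told. TFCP2L1 held place 3 of 6 in its family with 2.35% of the sum. UBP1 led that family at 11.1 FPKM, 29.1-fold above TFCP2L1, and the epithelial factor gene GRHL2 stood at 4.47 FPKM, with GRHL1 at 0.185 FPKM. TFCP2 was listed at 0 within the same run of rows and cannot be judged.

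**Figure D4:**
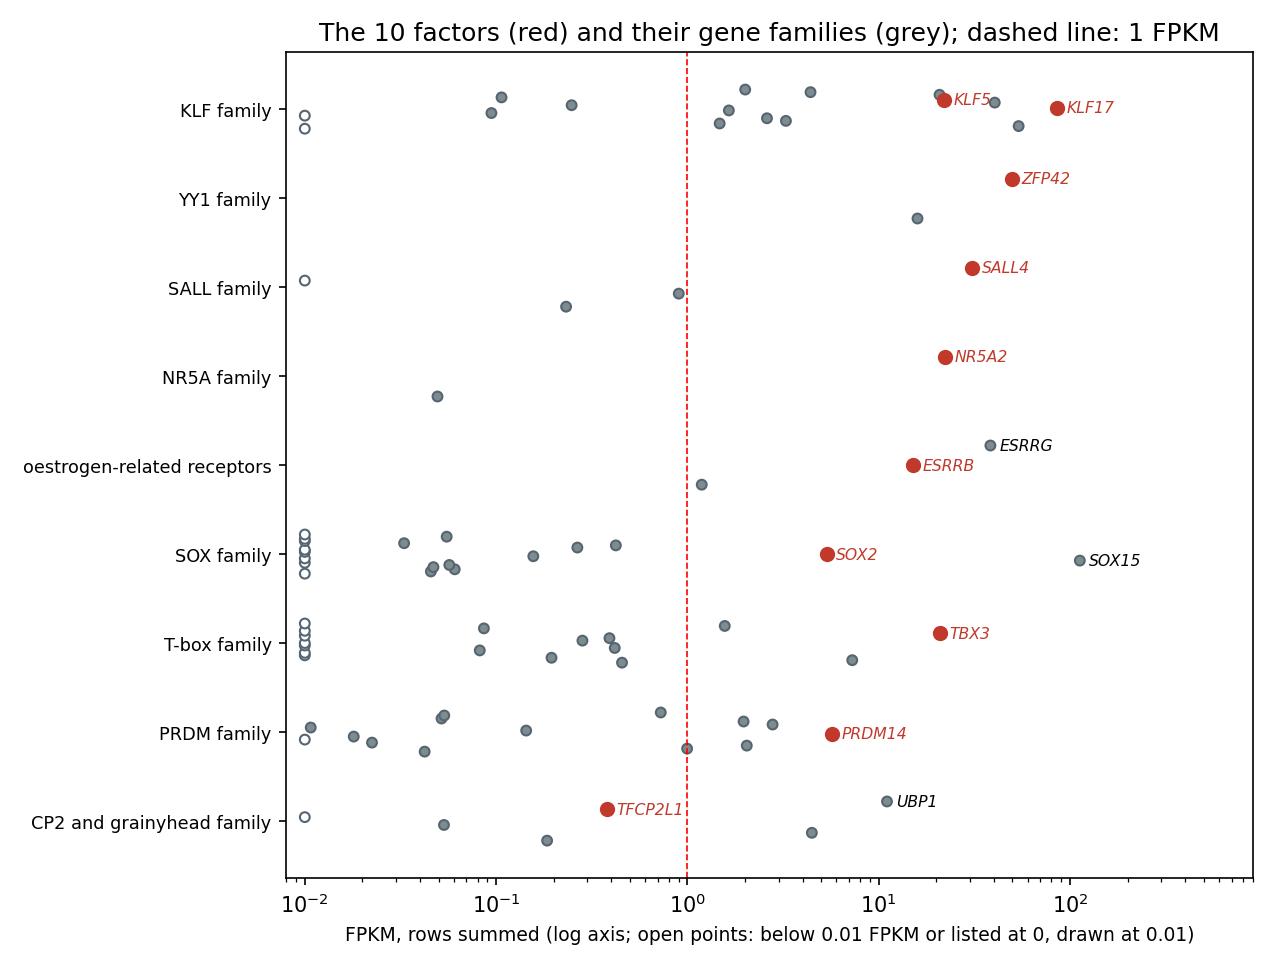
Each line is a gene family, each point a gene at its summed FPKM on a log axis, with the 10 factors in red and the highest gene named where it is another. Open points at 0.01 stand for genes below 0.01 FPKM or listed at 0. SOX15 (113 FPKM), ESRRG (38.4 FPKM) and UBP1 (11.1 FPKM) lie to the right of SOX2, ESRRB and TFCP2L1, and in the 6 other families a red point is farthest right.

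The factors work with other regulators of the pluripotent state, listed from general knowledge with earlier results of these data known. Of 18 measured genes of this list 13 (72.2%) stood at 1 FPKM or more, beside 50.6% of all genes, with a median of 4.20 FPKM, which is below 9 of the 10 factors. The highest were DPPA5, a marker of early embryos and germ cells, at 40.4 FPKM, THAP11 at 22.7 FPKM, the MYC partner gene MAX at 19.5 FPKM and MYC at 17.2 FPKM. KLF17 and ZFP42 lay above all 18. POU5F1 and NANOG were not analysed here. Of 13 measured genes of the formative and primed states, which follow the naive state in the epiblast, 3 (23.1%) reached 1 FPKM: TCF15 at 18.7 FPKM, LEF1 at 2.96 FPKM and ETV5 at 1.15 FPKM. By the highest row 2 of the 13 did, beside 48.8% of all genes. The median of the 13 was 0.553 FPKM.

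SALL4 is known to bind the NuRD complex, which removes acetyl groups from histones and moves nucleosomes. Of 12 measured NuRD genes 10 (83.3%) stood at 1 FPKM or more, beside 50.6% of all genes, and MTA1 was listed at 0 within the run of rows at 0 that ends the table. They were led by the histone-binding subunit gene RBBP4 at 255 FPKM, the deacetylase gene HDAC2 at 101 FPKM, RBBP7 at 66.3 FPKM and HDAC1 at 29.0 FPKM. Among 14 cofactor genes of the set 12 (85.7%) did, and 10 by the highest row. CTNNB1, the beta-catenin of WNT signalling, stood at 51.6 FPKM, and the methyltransferase gene CARM1 at 43.0 FPKM. NCOA3, a coactivator of ESRRB in mouse stem cells, stood at 16.8 FPKM, beside 15.2 FPKM for ESRRB. By the highest row NCOA3 stood at 8.70 FPKM and ESRRB at 15.0 FPKM. CBFA2T2, the corepressor that binds PRDM14, stood at 8.45 FPKM, beside 5.70 FPKM for PRDM14.

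TFCP2L1 lies downstream of the cytokine LIF and the factor STAT3 in mouse stem cells. Of 11 genes of this route 7 (63.6%) stood at 1 FPKM or more, and 6 by the highest row, beside 50.6% and 48.8% of all genes. These counts are near the share of all genes. The kinase gene PIM1 stood at 79.3 FPKM, IL6 at 14.7 FPKM, JAK1 at 10.9 FPKM and the shared receptor gene IL6ST at 6.65 FPKM. STAT3 itself was at 4.21 FPKM, the receptor gene LIFR at 0.574 FPKM and LIF at 0.00912 FPKM. PRDM14 is known as a repressor of the fibroblast growth factor route, of which 8 of the 14 genes counted here (57.1%) reached 1 FPKM, a share near the 50.6% of all genes. The feedback inhibitor genes SPRY4, SPRED1 and SPRY2 stood at 8.12, 6.17 and 3.49 FPKM, and the adaptor gene GRB2 at 3.06 FPKM. The receptor gene FGFR2 stood at 2.67 FPKM and FGFR1 at 0.0219 FPKM. The ligand gene FGF4, an established target of SOX2 in mouse stem cells, was listed at 0 in all its 3 rows, while SOX2 stood at 5.36 FPKM.

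**Figure D5:**
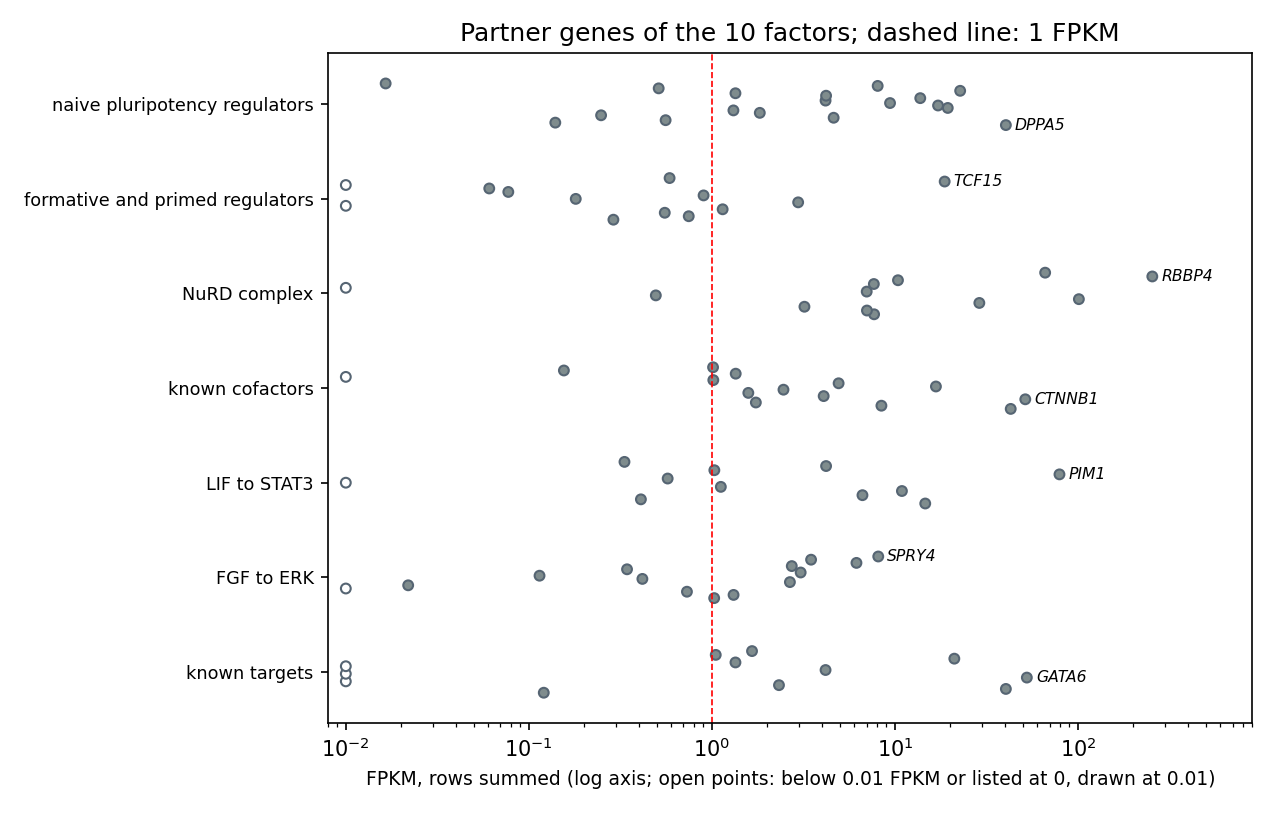
Each line is a list of partner genes and each point a gene at its summed FPKM on a log axis, with the highest gene of each list named and the dashed line at 1 FPKM. Open points at 0.01 stand for genes below 0.01 FPKM or listed at 0. Most points of the NuRD and cofactor lists lie at 1 FPKM or more, and 3 of 13 points of the formative and primed list do.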

How the data were processed

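RNA of 4 pig morula libraries was analysed. Per the labels' protocols, Smart-seq2 was used, which copies polyadenylated RNA of few cells. The authors deposited FPKM values, as the file header names them, with 1 row per Ensembl transcript, and the table's name says that 4 replicates were merged. The sources used here do not state whether reads or values were merged, or which annotation served. TopHat2 2.1.1, Cufflinks 2.2.1 and the build susScr11 stand among the submitters' processing notes with no role. The table has 4534 rows above 0 and under 1e-06 FPKM, and depth is unknown.

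Rows were summed per gene and ranked over 15877 genes with pandas 2.3.3 in Python 3.11.15, and the steps were tested on simulated data. With 1 merged column there was no test. The 10 genes and all lists were chosen with earlier results of these data known. Named were all 10 factors, up to 4 other genes at 1 FPKM or more per list, and the highest relative below 1 FPKM. CDH1, FSHR, FOXL2, SALL1, SALL3, TBX2, SOX1, SOX3, SRY, TFCP2, MTA1, STAT3, LIFR, LIF, FGFR2, FGFR1 and FGF4 were chosen after their values were seen. Some listed genes are not reported here and enter no list count. Alternatives were the highest row, other thresholds, a TPM scale and leaving out rows at 0 that end the table.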

Additional observations from a re-analysis of the deposited data

How the results depend on the processing

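The number of factors at 1 FPKM or more was 9 of 10 by the highest row, without the 474 rows at 0 that end the table, and at thresholds of 0.5 and 5 FPKM. With values rescaled to the TPM scale (a factor of 3.28) it was 10, since TFCP2L1 then stood at 1.25. The median of the factors was 13.0 FPKM by the highest row, against 21.4 FPKM summed, because 4 genes have several rows, and 70.1 on the TPM scale. The number of their rows past the threshold was 13 at 0.5 FPKM, 12 at 5 FPKM and 13 on the TPM scale. The share of all rows was taken at 1 FPKM only (30.3%), so these counts have no such share beside them. Leaving out single libraries was not run, as the table has no column per library. No paired analysis was possible because the 4 libraries share 1 merged column and no second group was analysed. Depth limits cannot be stated without read counts.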

Other observations

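Of 12 measured genes listed as targets of the 10 factors in other mammals 8 (66.7%) stood at 1 FPKM or more, and 7 by the highest row, beside 50.6% and 48.8% of all genes. GATA6, a hypoblast factor, stood at 52.6 FPKM, DPPA5 at 40.4 FPKM, TET1, which oxidises methylated cytosine, at 21.1 FPKM, and NR0B1, a nuclear receptor partner of NR5A2 and ESRRB, at 4.18 FPKM. LEFTY2, SPP1 and FGF4 were listed at 0, and the trophectoderm factor gene CDX2 was at 0.121 FPKM; these 4 genes were chosen after their values were seen. The trophectoderm and hypoblast factors thus lay on both sides of SOX2 (5.36 FPKM) in the same merged embryos.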
